A study of Mus musculus with 6 samples.

Results

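Transcripts of the plasminogen activation system, of matrix metalloproteinases and of their tissue inhibitors (TIMPs) were examined in mouse tumor organoids with and without a guide against Prkci. The 8 genes were chosen by symbol, as a list of plasminogen activators, matrix proteases and inhibitors, out of 20756 genes in the deposited table. They are Plaur, Plau and Plat, then Mmp7 and Mmp14, then Timp1, Timp2 and Timp3. All 8 symbols matched 1 identifier each. The organoids, 3-dimensional cultures of tumor epithelium, were grown from an intestinal tumor's metastasis in the liver, on the C57BL/6 strain, with small intestine named as the tissue. One population carried a guide RNA against Prkci (sgPrkci, described as PKClambdaKO), the gene of atypical protein kinase C lambda/iota, and the other a scrambled guide (sgScr in the series text, sgScbr in the labels, described as WT). Each had 3 libraries that the series calls biological replicates. Both populations were plated at about 1000 cells per drop of basement membrane extract, fed a medium with human EGF at 50 ng/ml, left untreated and harvested 72 h after plating. The sources used here do not give the tumor's driver mutations, the number of clones behind each guide or what set the replicate cultures apart. The p-values therefore measure the spread between these libraries, and an effect of the guide and any other difference of the populations cannot be told apart.

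Urokinase (Plau) and tissue plasminogen activator (Plat) are serine proteases that cut plasminogen to plasmin, which degrades fibrin and matrix proteins and activates other proteases. The urokinase receptor (Plaur) is a membrane-anchored protein that holds urokinase at the cell surface. Matrix metalloproteinases are zinc enzymes that cleave matrix and surface proteins, and TIMPs bind and block their active sites.

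Transcripts were measured by 3' tag sequencing, whose reads come from near the end of polyadenylated RNA. Values are CPM, a gene's reads scaled to the same library total in every sample and not divided by length. Levels of different genes are not ranked. Depth was 2141125 to 2815760 reads in the sgPrkci libraries and 2821908 to 3048170 reads in the sgScr libraries, so that 1 read was 0.328 to 0.467 CPM. Epithelial markers summed to 3866 to 4229 CPM in sgPrkci and 3579 to 4137 CPM in sgScr. The 6 endothelial markers in the table, of 10 listed, summed to 0.355 to 0.934 CPM in sgPrkci and 3.19 to 4.69 CPM in sgScr, led by Esam, while Pecam1 and Cdh5 had 0 reads. All 8 fibroblast markers in the table, of 10 listed, averaged under 1 CPM. The 6 macrophage markers in the table, of 11 listed, summed to 76.4 to 87.1 CPM in sgPrkci and 13.1 to 14.1 CPM in sgScr. Among them Mrc1 had 58.6 to 73.3 CPM in sgPrkci and 0.709 to 1.64 CPM in sgScr, while Ptprc, which marks leukocytes, stayed at or below 1.51 CPM in all 6 libraries. Another of them, Cd68, had 7.94 to 11.4 CPM in sgPrkci and 4.96 to 7.38 CPM in sgScr. The 5 neutrophil markers in the table, of 10 listed, summed to 35.9 to 40.2 CPM in sgPrkci and 58.1 to 80.5 CPM in sgScr, nearly all from Ly6g, with S100a8 and S100a9 at or below 0.709 CPM. The 7 hepatocyte markers in the table, of 12 listed, summed to 4.2 to 6.79 CPM in sgPrkci and 2.30 to 16.4 CPM in sgScr. Of these Apoa1 had 0.355 to 1.13 CPM in sgPrkci and 1.64 to 16.1 CPM in sgScr, Trf had 3.74 to 5.68 CPM in sgPrkci and 0 to 0.328 CPM in sgScr, and Ttr and Fga had 0 reads. The part of any minor cell type in the results was not tested. In such bulk RNA, fewer cells of a type and less RNA per cell cannot be told apart. Prkci itself had 46.9 to 56.5 CPM in sgPrkci and 46.6 to 63.8 CPM in sgScr. A 3' tag outside the edited site does not check the labels. The summed reads of 4 Y-linked genes, Uty, Kdm5d, Ddx3y and Eif2s3y, were 100 to 129 per library in sgPrkci and 0 to 1 in sgScr. The populations thus also differed in Y-linked transcripts, and the cause was not tested.

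Of the genes' upstream sequences, those of Plaur and Mmp7 are shown because both hold the 7-letter sequence TGANTCA. It is known as a binding sequence of AP-1 factors. Their mean transcript levels differed in opposite directions, though the call of Plaur, given below, ended under 9 of 17 alternative settings. Each sequence shown is the 250 bases before the RefSeq start on GRCm38.p6, 5′ to 3′ on the gene's own strand, with the match in capitals. The Plaur window is chr7:24462233-24462482 (plus strand), and the Mmp7 window is chr9:7691840-7692089 (plus strand).
Plaur: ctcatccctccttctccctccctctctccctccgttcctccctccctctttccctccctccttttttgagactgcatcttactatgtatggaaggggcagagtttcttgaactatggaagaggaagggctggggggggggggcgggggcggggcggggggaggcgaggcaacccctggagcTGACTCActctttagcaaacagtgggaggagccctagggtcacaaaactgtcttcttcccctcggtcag
Mmp7: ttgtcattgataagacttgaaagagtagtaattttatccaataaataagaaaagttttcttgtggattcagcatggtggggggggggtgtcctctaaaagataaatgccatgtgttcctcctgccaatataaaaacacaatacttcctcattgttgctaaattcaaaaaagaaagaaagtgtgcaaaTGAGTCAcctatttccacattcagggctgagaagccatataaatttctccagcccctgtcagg
The match lies 69 to 63 bases before the start in Plaur and 63 to 57 bases before it in Mmp7. The Plaur window is 59.6% G or C and the Mmp7 window 38.0%. RefSeq gave such a window for 6 of the 8 genes, and in the first window of each gene these were the 2 with TGANTCA, searched on both strands. Mmp7 has a second RefSeq start and window, which holds no TGANTCA. Of 32814 RefSeq windows of that length, 6.75% held it. The sequence AGGAAG, bound by ETS factors, was found in 5 of the 6 windows and in 29.5% of all windows. The consensus sequence of NF-kappaB was in 0 of the 6 and in 0.357% of all windows, and the TCF/LEF sequence CTTTGAT in 0 of the 6 and in 3.21%. The second Mmp7 window held CTTTGAT, beginning 247 bases before its start. The TATA box letters TATAAA were in 1 of the 6, that of Mmp7, and in 12.4% of all windows. None of these motifs contains another, and a match is a description only.

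Setting sgPrkci against sgScr asks how these transcripts differ where PKC lambda/iota is targeted. Both components of the urokinase pair rose, and 3 genes of the protease and inhibitor group, Mmp7, Timp2 and Timp3, fell. The other 3, Plat, Mmp14 and Timp1, did not pass the test. Thus 2 of the 8 genes were called higher and 3 lower (limma on log2(CPM + 1), adjusted p under 0.05 over 12195 tested genes). Over all tested genes 31.8% were called, 11.4% higher and 20.5% lower. Among the called members, Timp3 reached 1 CPM only in sgScr libraries. The call of Plaur (adjusted p = 0.049) ended under 9 of 17 alternative settings. With TMM factors or edgeR the members' counts were again 2 and 3 (30.6% and 30.7% of all genes called), with DESeq2 they were 1 and 3 (20.8%), and with chromosome medians removed 3 and 3 (26.5%). The median log2 fold change was -0.35 for the 8 genes and -0.11 for all tested genes. The libraries of sgPrkci lay wholly above or below those of sgScr for 6 of the 8 genes, 2 higher and 4 lower, against 43.0% of all tested genes (15.9% higher and 27.1% lower). The share of calls in each direction depended on scaling: 35.7% of all calls were higher in sgPrkci as deposited, and 51.4% with TMM factors, under which the median over all genes was -0.02. A log2 fold change given here is the sgPrkci mean minus the sgScr mean of log2(CPM + 1), a scale that shrinks differences of low genes. All adjusted p-values are from limma unless another tool is named.

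**Figure D1:**
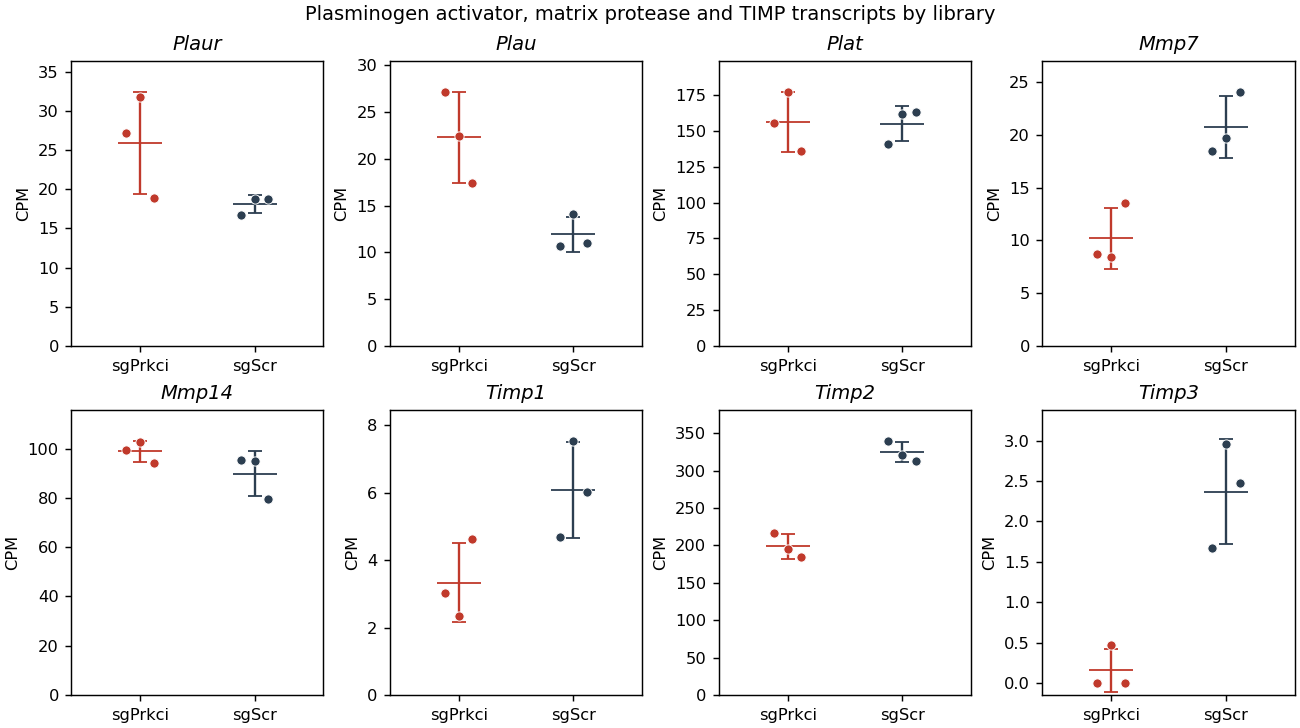
CPM of the 8 genes in each library, sgPrkci left and sgScr right in each panel, each axis on its own scale; points are libraries, and the horizontal and vertical bars are the mean and SD of 3. Plau and Plaur lie higher and Mmp7, Timp1, Timp2 and Timp3 lower in sgPrkci without overlap, while Plat and Mmp14 overlap.

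Plau (ENSMUSG00000021822, chromosome 14, 20836660 to 20843385, plus strand), the gene of urokinase, had 27.2, 22.4 and 17.4 CPM in the sgPrkci libraries, against 10.7, 14.1 and 10.99 CPM in the sgScr libraries. The lowest sgPrkci library was above the highest sgScr library. Plau averaged 22.3 ± 4.88 CPM in sgPrkci and 11.9 ± 1.88 CPM in sgScr (SD, n = 3 each), the sgPrkci mean being 187% of the sgScr mean (log2 fold change 0.84, SE 0.20, adjusted p = 0.0014). The means rest on 169 reads in sgPrkci and 106 in sgScr. Plaur (ENSMUSG00000046223, chromosome 7, 24462484 to 24475968, plus strand), the gene of the urokinase receptor, had 27.2, 31.8 and 18.8 CPM in sgPrkci libraries 1, 2 and 3, against 16.8, 18.7 and 18.8 CPM in sgScr libraries. The third sgPrkci library lay only just above the sgScr range, while the other two stood clear of it. Plaur averaged 25.9 ± 6.56 CPM in sgPrkci and 18.1 ± 1.14 CPM in sgScr (log2 fold change 0.47, SE 0.18, adjusted p = 0.049). That call ended under 9 of 17 alternatives, among them DESeq2 (adjusted p = 0.060) and no filter on low values (adjusted p = 0.054). Omission of any library except sgPrkci library 3 also ended it, with adjusted p from 0.064 to 0.27, and without sgPrkci library 2 the log2 fold change was 0.31. The call of Plau held under all 17. Plat (ENSMUSG00000031538, chromosome 8, 22757727 to 22782844, plus strand), the gene of tissue plasminogen activator, had 156, 177 and 136 CPM in sgPrkci libraries, against 141, 162 and 163 CPM in sgScr libraries. The groups overlapped and their means were 156 ± 20.9 CPM in sgPrkci and 155 ± 12.5 CPM in sgScr (log2 fold change 0.00, SE 0.10, adjusted p = 0.98). Within the activators, urokinase and its receptor were thus the genes that passed, and tissue plasminogen activator did not.

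Mmp7 (ENSMUSG00000018623, chromosome 9, 7692090 to 7699585, plus strand) encodes matrilysin, which lacks the hemopexin domain of most family members and in the mouse small intestine activates the alpha-defensins of Paneth cells. It had 8.67, 8.41 and 13.5 CPM in sgPrkci libraries, against 18.4, 19.7 and 24.1 CPM in sgScr libraries. Each sgPrkci library was below each sgScr library. Mmp7 fell to 10.2 ± 2.86 CPM in sgPrkci, against 20.7 ± 2.97 CPM in sgScr (log2 fold change -0.98, SE 0.21, adjusted p = 0.00046), or 49.1% of the sgScr mean, on 79 reads in sgPrkci and 183 in sgScr. Reads of the Paneth cell genes Lyz1 and 6 Defa genes numbered 0, 0 and 1 in sgPrkci libraries, against 43, 0 and 18 in sgScr libraries. Itln1, another Paneth cell marker and the 1 that was tested, was called higher, with 3.74 to 7.17 CPM in sgPrkci and 0.984 to 2.68 CPM in sgScr. Pla2g2a had 0.934 to 2.13 CPM in sgPrkci and 0 to 0.67 CPM in sgScr. All 11 Paneth cell markers in the table, of 12 listed, summed to 4.67 to 8.30 CPM in sgPrkci and 1.31 to 18.8 CPM in sgScr, and their part in the Mmp7 difference was not tested. The annotated antisense gene AV064505 overlaps Mmp7 exons, and the sources used here do not say whether the counting used strand. Mmp14 (ENSMUSG00000000957, chromosome 14, 54431612 to 54445364, plus strand) encodes a membrane-anchored collagenase that activates MMP2 in a complex with TIMP2. It had 99.6, 103 and 94.1 CPM in sgPrkci libraries, against 95.2, 94.8 and 79.4 CPM in sgScr libraries. These ranges overlapped, and the means of 98.8 ± 4.37 CPM in sgPrkci and 89.8 ± 9.03 CPM in sgScr did not differ beyond their spread (log2 fold change 0.14, SE 0.11, adjusted p = 0.33).

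Timp2 (ENSMUSG00000017466, chromosome 11, 118301069 to 118355740, minus strand), an inhibitor that also serves MMP14 in the activation of MMP2, had 217, 195 and 185 CPM in sgPrkci libraries, against 340, 321 and 314 CPM in sgScr libraries. The gap between the groups was wider than the range within either. Timp2 fell to 199 ± 16.7 CPM in sgPrkci, against 325 ± 13.8 CPM in sgScr (log2 fold change -0.71, SE 0.09, adjusted p = 1.7e-07), on 1513 reads in sgPrkci and 2878 in sgScr. Timp3 (ENSMUSG00000020044, chromosome 10, 86300372 to 86349506, plus strand), a matrix-bound inhibitor that also blocks ADAM17, had 0, 0.467 and 0 CPM in sgPrkci libraries, against 1.68, 2.95 and 2.48 CPM in sgScr libraries. Those are 0, 1 and 0 reads against 5, 9 and 7 reads. The sgScr to sgPrkci ratio of depth-scaled reads was 18.0, with an exact 95% counting interval of 2.90 to 746 that covers counting error only. Timp3 passed the filter on low values only through its sgScr libraries, so its call (log2 fold change -1.55, adjusted p = 0.0019) describes a gene near the detection floor. Its log2 fold change ranged from -3.95 with DESeq2 to -0.51 with a pseudocount of 5 CPM. Its exons overlap those of Syn3 on the opposite strand, which averaged 0.232 CPM. Timp1 (ENSMUSG00000001131, chromosome X, 20870166 to 20874735, plus strand), a secreted inhibitor, had 3.02, 2.34 and 4.62 CPM in sgPrkci libraries, against 4.69, 7.55 and 6.02 CPM in sgScr libraries. The groups stood apart by less than 1 read's worth of CPM. Timp1 averaged 3.32 ± 1.17 CPM in sgPrkci and 6.09 ± 1.43 CPM in sgScr, and just missed the threshold (log2 fold change -0.73, SE 0.29, adjusted p = 0.054). It passed without sgPrkci library 3 (log2 fold change -0.93, adjusted p = 0.029), without sgScr library 1 (log2 fold change -0.88, adjusted p = 0.035) and with a pseudocount of 5 CPM (log2 fold change -0.42, adjusted p = 0.047). All 3 inhibitor genes therefore had lower means in sgPrkci, of which 2 passed.

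**Figure D2:**
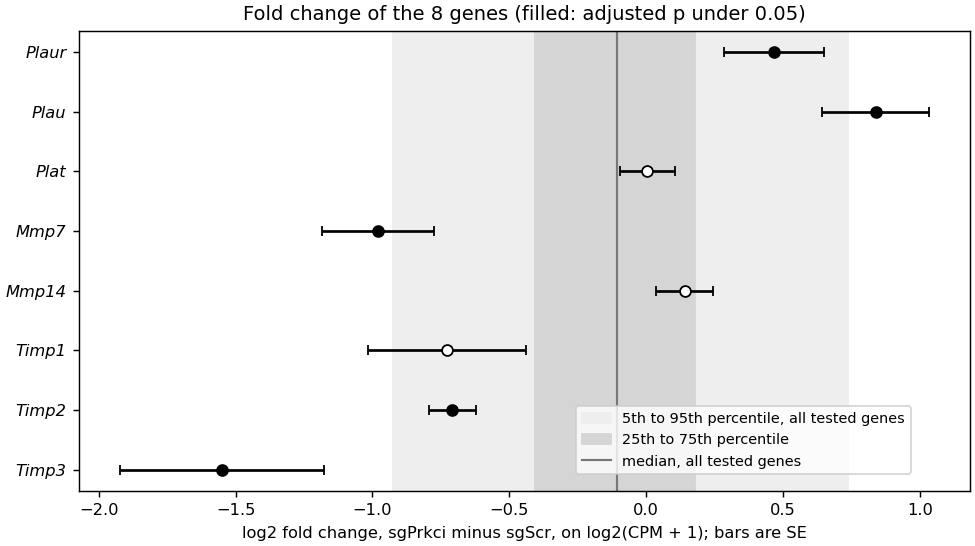
Log2 fold change of each gene, sgPrkci minus sgScr, with its SE; filled points passed at an adjusted p under 0.05, and grey bands and line show percentiles and the median of all 12195 tested genes. Timp3, Mmp7 and Plau lie outside the 5th to 95th percentile range of -0.92 to 0.74, and Plat and Mmp14 inside the middle band.

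A log ratio of 2 genes within a library depends little on the library's scaling where both are well above the added 1 CPM, which does not hold for Timp3 and holds only in part for Timp1. For 6 pairs of these genes, log2((A + 1)/(B + 1)) of the CPM values was compared by an exact two-sided permutation test, where 3 against 3 libraries cannot go below p = 0.1. Mmp14 over Timp2 was -1.12, -0.92 and -0.97 in sgPrkci libraries, against -1.83, -1.75 and -1.97 in sgScr libraries. The sgPrkci libraries were all above, by a mean of 0.85 (exact permutation p = 0.1, adjusted over 6 pairs 0.15, n = 3 each). For Mmp14 over Timp3 the mean was 6.46 ± 0.27 in sgPrkci and 4.77 ± 0.35 in sgScr. With 0, 1 and 0 reads of Timp3 in sgPrkci that value is set by the added 1 CPM, and the difference ranged from 0.65 with a pseudocount of 5 CPM to 2.99 with 0.25 CPM, so it supports no comparison. Plat over Timp2 averaged -0.35 ± 0.19 in sgPrkci and -1.06 ± 0.18 in sgScr, a difference of 0.71 with no overlap (exact permutation p = 0.1). Plaur over Timp1 averaged 2.64 ± 0.75 in sgPrkci and 1.45 ± 0.22 in sgScr, a difference of 1.19, again without overlap (exact permutation p = 0.1). The remaining pairs overlapped. Plau over Plaur differed by 0.37 (exact permutation p = 0.2) and Mmp7 over Timp1 by -0.25 (exact permutation p = 0.3). Of the pairs of a metalloproteinase with a TIMP, Mmp14 over Timp2 was thus higher in every sgPrkci library, and Mmp7 over Timp1 overlapped. The median log2 fold change of the gene's chromosome was -0.08 for Mmp14, -0.28 for Plat and -0.40 for Timp2. The part of these medians in the ratios over Timp2 was not tested. Plat and Plaur are not targets of TIMPs, and their ratios only set transcripts side by side. None of the 6 passed after adjustment. Timp1, Timp2 and Timp3 each stood apart between groups on their own, as did 43.0% of all tested genes. How often pairs of other genes stand apart was not computed, so the pairs without overlap are a description only.

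**Figure D3:**
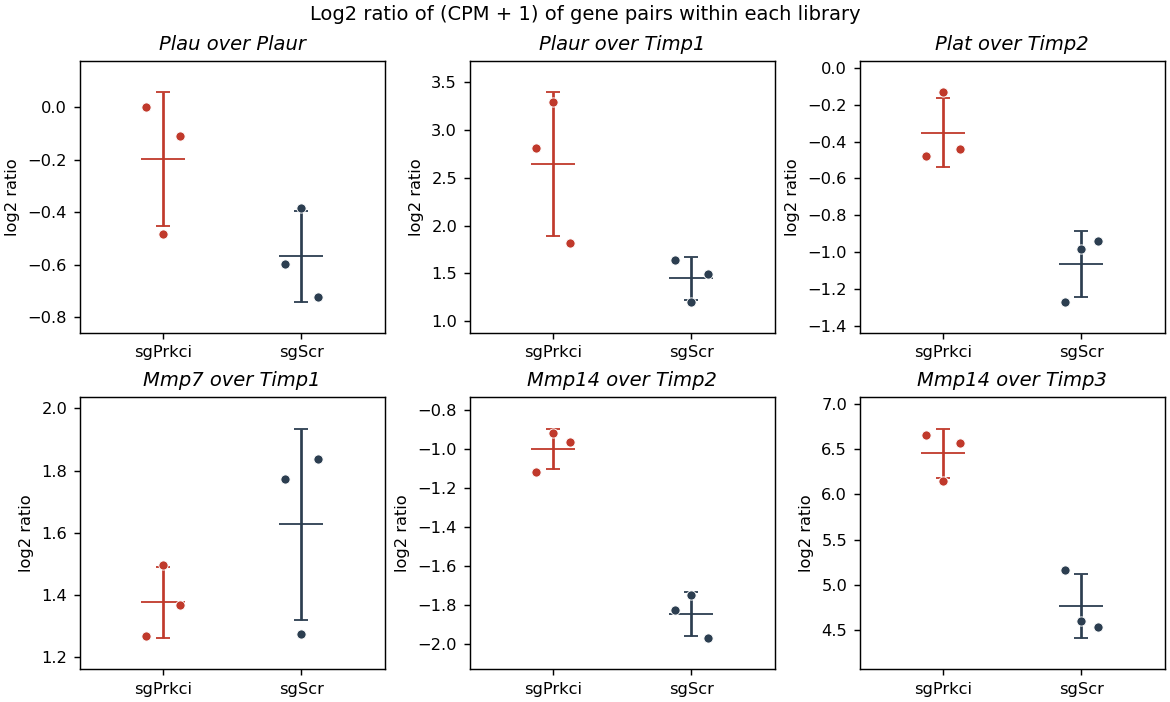
Log2 ratio of CPM + 1 for each of 6 gene pairs in each library, sgPrkci left and sgScr right; points are libraries and bars the mean and SD of 3. The 4 pairs Plaur over Timp1, Plat over Timp2, Mmp14 over Timp2 and Mmp14 over Timp3 do not overlap between groups. Mmp14 over Timp3 is set by the added 1 CPM in sgPrkci. None passed after adjustment, and each TIMP also stood apart on its own.

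Median log2 fold changes differed between chromosomes, so each gene was set beside others of its chromosome with a mean of at least 10 CPM. On chromosome 11, the median log2 fold change of 646 such genes was -0.40, and that of the 95 within 5 Mb of Timp2 was -0.39, with 51 of them called lower and 2 higher. Timp2 stood at the 20.9 percentile of its chromosome, nearer the middle than the other called genes on theirs. With chromosome medians removed, the log2 fold change of Timp2 was -0.31 (adjusted p = 0.0063), still past the threshold, against -0.71 without that step. Around Plat on chromosome 8 the 32 genes within 5 Mb had a median of -0.57, with 25 called lower, while Plat was at 0.00. Plat stood at the 78.0 percentile of its chromosome, whose median was -0.28. Removing that median gave Plat a log2 fold change of 0.28 (adjusted p = 0.034). Such p-values leave out the error of the chromosome's shift. Plau and Plaur stood at the 96.3 and 90.9 percentiles of chromosomes 14 and 7, whose medians were both -0.08. Mmp7 was at the 2.45 percentile of chromosome 9 (median -0.01), Timp1 at the 6.20 percentile of the X chromosome (median -0.00) and Timp3 at the 1.06 percentile of chromosome 10 (median -0.17). Mmp14 was at the 77.1 percentile of chromosome 14. Of the called genes, Timp2 was the one on a chromosome whose median lay furthest from 0.

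**Figure D4:**
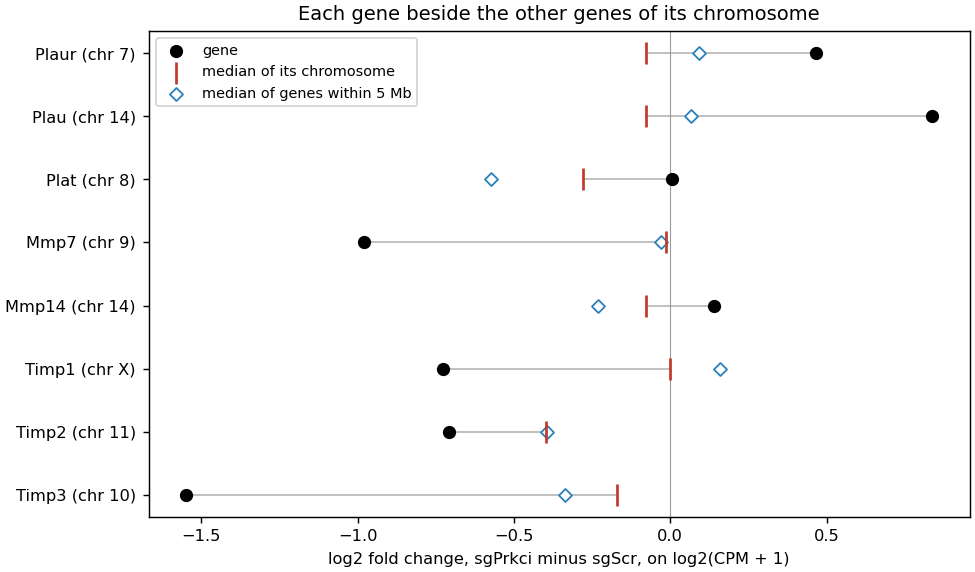
Log2 fold change (sgPrkci minus sgScr) of each gene as a black point, the median of its chromosome as a red bar and the median of genes within 5 Mb as a blue diamond. Timp2 at -0.71 lies below its chromosome's median of -0.40, and Plat lies above its neighbours. Plaur at 0.47 lies above its medians of -0.08 and 0.09, and Plau, Mmp7, Timp1 and Timp3 lie far from both medians.

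Beyond the 8 genes, 122 further genes of 6 protease and inhibitor lists were looked up, of which 84 were in the table and 45 were tested. Of these 18 were called higher and 8 lower, with a median log2 fold change of 0.21. The counts include Mmp12 among the higher genes and Adam19 and Adamts17 among the lower. Those genes passed the filter only through the group where they are high, so the filter set their direction. Among all tested genes 31.8% were called, 11.4% higher and 20.5% lower, which is the background for each list below. Those not in the table, such as Plg, Mmp2, Mmp3 and Reck, were not analysed here. Mmp9, Mmp16, Serpine2 and Vtn had 0 reads in all 6 libraries, where 3 reads would be 0.984 to 1.40 CPM in a library.

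Among 11 tested partners of the plasminogen and coagulation system, 4 rose and 2 fell. F3, the gene of tissue factor, which starts coagulation, had 196, 309 and 122 CPM in sgPrkci libraries, against 31.2, 39.4 and 31.9 CPM in sgScr libraries (log2 fold change 2.48, SE 0.37, adjusted p = 0.0074). The sgPrkci libraries spread widely but all lay above. F2r, which encodes the thrombin receptor PAR1, rose to 9.13 ± 1.93 CPM in sgPrkci, against 2.12 ± 1.33 CPM in sgScr (adjusted p = 5.7e-05). Lrp1, an endocytic receptor that clears protease and inhibitor complexes, rose to 5.83 ± 1.90 CPM in sgPrkci, against 1.83 ± 0.871 CPM in sgScr (adjusted p = 0.0023). Anxa2, whose product binds plasminogen and tissue plasminogen activator at the cell surface, rose to 6217 ± 428 CPM in sgPrkci, against 3421 ± 113 CPM in sgScr (adjusted p = 7.0e-12). The log2 fold change of its partner S100a10 was -0.01 (adjusted p = 0.92). Procr, the protein C receptor gene, fell to 1.71 ± 1.47 CPM in sgPrkci, against 8.98 ± 3.02 CPM in sgScr (adjusted p = 7.0e-05). Eno1, a glycolysis gene whose product also binds plasminogen, fell by 0.47 on the log2 scale (adjusted p = 0.0036, and 0.079 with DESeq2); reads from its near-identical copies make that value uncertain.

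Of 5 other metalloproteinase genes tested, 2 rose and 1 fell. Mmp15, a membrane-type family member, rose to 31.5 ± 4.99 CPM in sgPrkci, against 14.6 ± 3.0 CPM in sgScr (log2 fold change 1.07, SE 0.18, adjusted p = 3.1e-05). It lies on chromosome 8, whose median was lower. Mmp12, the macrophage elastase gene, had 14 reads over the sgPrkci libraries and 1 over the sgScr libraries, a ratio of 16.3 with a 95% counting interval of 2.48 to 689, and passed the filter only through sgPrkci. Its exons overlap Mmp1b on the opposite strand. Of the macrophage markers given above, 3 were tested and 2 called higher in sgPrkci, Mrc1 and Cd68. The third, Cd14, overlapped, with 4.67 to 8.67 CPM in sgPrkci and 4.36 to 6.73 CPM in sgScr. Lyz2 and C1qa had 0 CPM in every sgPrkci library and at most 1.01 CPM in sgScr libraries. The part of these markers in the Mmp12 value was not tested. Mmp24, another membrane-type member, fell to 3.86 ± 0.894 CPM in sgPrkci, against 11.1 ± 1.28 CPM in sgScr (adjusted p = 0.00013), with exons that overlap BC029722 on the opposite strand. Of 8 further regulators tested, 2 rose and 1 fell. Cd44, a hyaluronan receptor that docks proteases at the surface, rose to 1649 ± 159 CPM in sgPrkci, against 1006 ± 132 CPM in sgScr (log2 fold change 0.72, SE 0.08, adjusted p = 2.0e-07). Pcolce, which enhances procollagen cleavage, fell to 9.79 ± 2.15 CPM in sgPrkci, against 52.8 ± 3.08 CPM in sgScr (log2 fold change -2.34, SE 0.17, adjusted p = 9.5e-12), though its exons overlap Fbxo24 on the same strand. Its relative Pcolce2 rose (log2 fold change 0.67, adjusted p = 0.018) with groups that overlapped, and its adjusted p was 0.086 without sgPrkci library 1, 0.11 without sgPrkci library 3 and 0.12 without sgScr library 1.

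Membrane-anchored and secreted serine proteases with their inhibitors, the list with the most tested genes, had 8 called higher and 2 lower of 14 tested. Over all tested genes 11.4% were called higher and 20.5% lower. Tmprss4 rose to 182 ± 12.6 CPM in sgPrkci, against 93.9 ± 5.17 CPM in sgScr (log2 fold change 0.94, SE 0.10, adjusted p = 5.8e-09). Prss22, a tryptase-like protease gene, rose to 60.8 ± 5.23 CPM in sgPrkci, against 26.7 ± 2.62 CPM in sgScr (adjusted p = 8.7e-08). Tmprss2 rose to 214 ± 28.1 CPM in sgPrkci, against 129 ± 19.3 CPM in sgScr (adjusted p = 3.7e-06), and Tmprss11b to 7.13 ± 1.95 CPM, against 1.68 ± 0.643 CPM in sgScr (adjusted p = 0.00014). The value for St14, the matriptase gene, was -0.01 on the log2 scale (adjusted p = 0.97). Prss23 fell to 1.27 ± 0.914 CPM in sgPrkci, against 5.86 ± 1.93 CPM in sgScr (adjusted p = 0.00037). Wfdc2 fell by 0.24 on the log2 scale (adjusted p = 0.031) with overlapping groups, and 9 of 17 alternatives ended that call, among them TMM scaling (adjusted p = 0.23) and omission of sgPrkci library 1, sgPrkci library 2 or sgScr library 3 (adjusted p from 0.066 to 0.20). Of 6 genes tested from the list of ADAM proteases, which shed surface proteins, Adam10 and Adam15 rose and Adam19 fell. That list also holds Bmp1 and Mep1b, which are not ADAM genes. Bmp1 was tested and not called (log2 fold change -0.78, adjusted p = 0.17). Adam10 had 366 ± 16.2 CPM in sgPrkci and 233 ± 22.5 CPM in sgScr (adjusted p = 7.1e-07). Adam15 had 54.2 ± 7.33 CPM in sgPrkci and 37.8 ± 9.48 CPM in sgScr (adjusted p = 0.0090), with groups that overlapped. Its call ended under 3 of 17 alternatives, among them omission of sgPrkci library 1 (adjusted p = 0.067) or sgScr library 3 (adjusted p = 0.087). Adam19, on chromosome 11, had 4 reads over the sgPrkci libraries and 102 over the sgScr libraries, a ratio of sgScr to sgPrkci in CPM of 21.9 (95% counting interval 8.30 to 82.0). Adamts17 was the 1 ADAMTS gene tested of 12 in the table. It had 0 reads in sgPrkci and 14 in sgScr, at least 4.01-fold lower against 3 reads over the group, and without sgScr library 2 its call ended (adjusted p = 0.074). Both Adam19 and Adamts17 passed the filter only through sgScr.

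**Figure D5:**
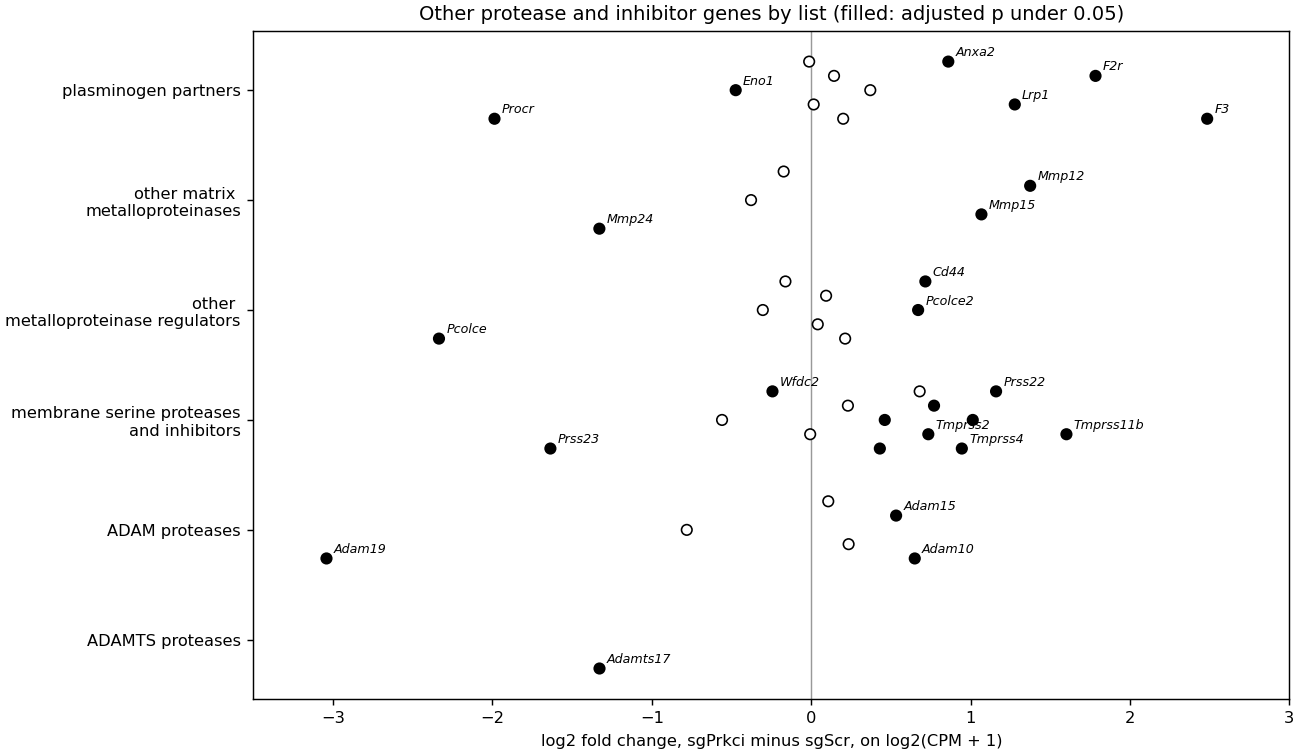
Log2 fold change (sgPrkci minus sgScr) of the 45 tested genes of 6 further lists, 1 row per list; filled points passed at an adjusted p under 0.05, and labels name the passing genes with the smallest p. Membrane serine proteases lie mostly to the right of 0, and Adam19 and Pcolce furthest to the left.

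Genes with the most similar pattern over the 6 libraries were found for each called member among 7982 genes with a mean of at least 10 CPM, as the smallest root mean square difference of centred log2(CPM + 1). Zfp51 and Fam20b came closest to Plaur, with differences of 0.062 and 0.081. Acsbg1 and Pik3c2b came closest to Plau (0.12 and 0.13). For Mmp7 they were Snf8 and Ruvbl1 (0.11 and 0.12), and for Timp2 they were Nudt14 and Wrn (0.023 and 0.047). Timp3 had Tm4sf1 and Cth nearest (0.137 and 0.145). With 0, 1 and 0 reads in sgPrkci libraries, the pattern of Timp3 is set by the added 1 CPM, so its nearest genes support no comparison. Nudt14 had 28.3, 24.3 and 23.1 CPM in sgPrkci libraries, against 44.6, 40.7 and 39.7 CPM in sgScr libraries, which followed Timp2 library by library. The points share libraries and a group difference, and these values are a description.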

How the data were processed

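The authors deposited 6 columns of CPM, made from QuantSeq 3' FWD libraries of 200 ng total RNA, per the labels' protocols. GRCm38 is the build in the submitters' processing notes. The sources used here name no aligner, counting program, strand setting, use of molecular identifiers or annotation. Of the 124536 deposited CPM values, 100% were whole multiples of 1 read (within 1e-06), and these whole reads were recovered; 0 columns were left unmapped. Names and positions came from GENCODE M21, with no entry for 81 genes, and promoter windows from RefSeq on GRCm38.p6.

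The 12195 genes that reached 1 CPM in 3 or more of the 6 samples were tested with limma 3.58.1 (R 4.3.3) on log2(CPM + 1), with variance trend and robust moderation, two-sided, Benjamini-Hochberg adjusted over all of them and called under 0.05. The script was tested on simulated reads with few changed genes and no chromosome-wide shifts. That test checked the code and does not measure the error of the calls in these data. Libraries within a group differed beyond sampling noise (chi-square per degree of freedom 1.63 to 3.18). Counting intervals and floors cover counting error only.

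The 8 genes, the 6 pathway lists, the 7 marker lists and the tests were chosen with earlier results of these data known. Of each pathway list, called genes were named, up to 4 in each direction by p, plus the largest change each way; S100a10 and St14 were named after their values were seen, for their roles. Tried instead were a pseudocount of 0.25 or 5 CPM, a filter at 5 CPM or none, scaling by TMM, median of ratios or quantiles, chromosome medians removed (chromosomes with at least 50 genes), plain eBayes moderation, edgeR 4.0.16 and DESeq2 1.42.0 on recovered reads, and each library left out. edgeR called 3741 genes and DESeq2 2540.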

Additional observations from a re-analysis of the deposited data

How the results depend on the processing

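Of the 8 genes, Plau, Mmp7, Timp2 and Timp3 kept direction and call under every alternative that gave a value (17 each, and 16 for Timp3, which a filter at 5 CPM removes). Members called higher were 2 as reported and 1 with a pseudocount of 0.25 CPM, no filter, plain eBayes moderation or DESeq2, and 1 to 2 with a library left out; the gene lost was Plaur each time. Members called lower were 3 to 4 with a library left out, Timp1 being the addition. With a library left out, Plat ranged from -0.090 (without sgPrkci replicate 2) to 0.10 (without sgPrkci replicate 3) and was -0.063 without sgScr replicate 1; its highest value under any alternative was 0.28, with chromosome medians removed (limma adjusted p = 0.034); the cause was not tested. All genes called lower numbered 2495 as reported, 1624 with chromosome medians removed and 1118 with DESeq2. Called genes of the ADAM list, which includes Bmp1 and Mep1b, were 3 as reported and 5 with no filter, since more were tested. The 1 called ADAMTS gene was 0 with a filter at 5 CPM, which removes it (it was called with edgeR and DESeq2), and 0 to 1 with a library left out. The 6 pair contrasts kept their signs. With a pseudocount of 5 CPM, log2 fold changes of genes at a few CPM shrank, for example F2r to 1.00, Lrp1 to 0.66, Procr to -1.06, Mmp24 to -0.86, Tmprss11b to 0.85 and Prss23 to -0.79. No paired analysis was possible because the labels give the groups no shared replicate numbers. Low reads limit Timp1, Timp3, Mmp12 and Adamts17.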
